A study of Arabidopsis thaliana with 9 samples.

Results

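The transcriptome of 17-day-old control Arabidopsis thaliana plants was described from the 3 arrays of line C2S1, chosen by their line label out of 9 arrays in all. The titles of these samples say wild type, but the label for genetic variation says knock out mutation, so the genotype of C2S1 is not settled by the labels. The other 6 arrays belong to lines 348 and 409 and were not compared here. Seeds of C2S1 had been dried, kept cold at 4 C for at least 7 days and surface sterilised, and were sown at 25 per plate on agar medium containing sucrose. Plants were grown under 16 h light and 8 h dark at 21 C and were taken whole at growth stage 1.04, by which a rosette with true leaves has formed. Total RNA was labelled with biotin and hybridised to the Affymetrix ATH1 array, on which short oligonucleotide probes are grouped into probe sets. The labels name no batch and do not state if separate cultures were harvested, so the spread between them may be technical.

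A young rosette on lit agar is mostly green leaf tissue, and its chloroplasts carry a genome of their own. That genome encodes subunits of the photosystems, the cytochrome b6f complex, the ATP synthase, the NDH complex, the plastid RNA polymerase and the plastid ribosome, while the nucleus encodes the antenna proteins, most enzymes of carbon fixation and the remaining subunits. Genes for flowers, pollen and seeds are largely used at other stages, and most annotated pseudogenes of this genome are remnants of mobile elements. In RNA from whole plants, fewer cells of a type and less RNA per cell cannot be told apart.

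Levels are given as MAS5 signals, a brightness in arbitrary units on a linear scale, and each mean carries the SD of the 3 arrays. Probe sets differ in how well they hybridise, so a higher signal of 1 gene than of another does not by itself mean more transcript. In 146 genes that had several probe sets, the highest and lowest means differed by a median of 1.69 on the log2 scale, or 3.22-fold. For this, 4.62 had been added to each mean. The part of hybridisation in these differences was not tested. In 61 of the 146 genes the difference was above 4-fold. AGL26, a MADS-box gene, had a mean of 295 from 1 probe set and 0.145 from another, and SDH2-1, for the iron-sulfur subunit of succinate dehydrogenase, had 325 and 1.58. The ranks are therefore ranks of signal.

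The 3 arrays had a 2% trimmed mean of 100 each. Their median signals were 38.2, 38.1 and 38.0 on arrays 1, 2 and 3. The ratio of the 3 prime to the 5 prime control probe set, a measure of RNA integrity and labelling, was 1.79, 1.93 and 1.97 for GAPDH on arrays 1, 2 and 3, and lower on each array for ubiquitin, up to 1.72. For actin it was far higher, at 8.97, 12.0 and 9.86. After 64 Affymetrix control probe sets were left out, 22746 were ranked, of which 13513 were assigned to 1 gene, 503 to several and 8730 to none in the gene table used here. Gene groups cover only the members that this table names, which left many familiar leaf, root and housekeeping genes not analysed here.

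Mean signals ran from 0.0288 to 8133 with a median of 38.2. The high class held the top 10% of probe sets, 2275 of them with means of at least 295, and carried 64.6% of the summed signal. The middle class spanned the 40th to the 60th percentile, from 21.4 to 61.6, and the low class held the bottom 20%, with means up to 4.72. The high class took in 10.0% of all ranked probe sets by construction. It held 7.13% of the probe sets with 1 gene, 15.9% of those with several and 14.1% of those with none named. The low class held 24.5% of the probe sets with 1 gene, and the middle class 19.8%. Most gene lists were matched by gene symbol. Among the 1580 probe sets with a gene symbol, the high, middle and low classes held 15.2%, 18.4% and 13.4%. The median signal of these probe sets was 60.6. The probe sets just inside and just outside the high class both had means of 295, and those at the edge of the low class both had 4.72.

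**Figure D1:**
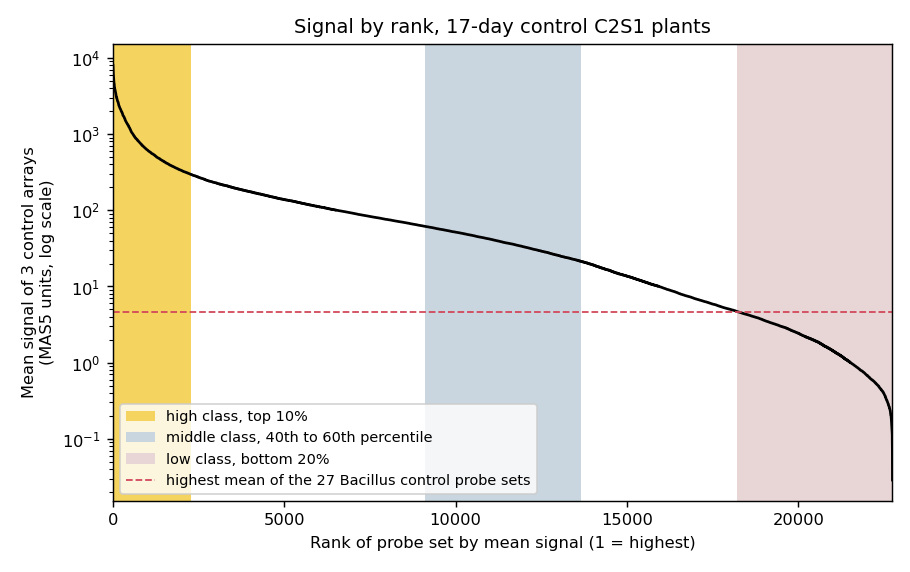
Mean signal of the 3 control arrays (MAS5 units, log scale) against the rank of each of the 22746 probe sets, with the high, middle and low classes shaded. The curve is steep at both ends, and the dashed line at 4.58, the highest mean among 27 control probe sets for Bacillus transcripts, meets it at the edge of the low class.

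A floor for these signals came from the 27 probe sets for Bacillus transcripts, which have no target in a plant unless spiked in. Their signals ranged from 0.129 to 7.46 over the 3 arrays, with a median of 0.999, and their highest mean was 4.58. Of the ranked probe sets, 4456, or 19.6%, had a mean at or under 4.58. The low class held 4549 probe sets with means up to 4.72, so nearly all of it lay at or under that Bacillus mean. No transcript of the low class can be called present from its signal alone, and none can be called absent.

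The chloroplast genome was prominent at the top of the ranking. Of 69 plastid-encoded genes measured, 60 lay in the high class and none in the low class, against 7.13% in the high class among all probe sets with 1 gene, and their median signal was 1445, against 27.6 for those probe sets. They made up 11 of the 25 highest-ranking probe sets with 1 gene. Of the other 14, 5 were nuclear genes with a symbol and 9 carried a locus number alone. Among the 100 highest of all probe sets 14 were plastid-encoded and 58 had no gene named.

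The ATP synthase, which makes ATP from the proton gradient across the thylakoid, held the highest named signals. atpB, its beta subunit, gave 6773, 6980 and 6603 on arrays 1, 2 and 3, a mean of 6785 ± 189 (SD, n = 3), at rank 6 of all probe sets. atpE, its epsilon subunit, gave 6532, 6409 and 6004, and atpA, the alpha subunit, 4826, 4896 and 4130. In both genes the lowest value was on array 3. atpI, a membrane subunit, had only 200, 180 and 130, so that 5 of the 6 ATP synthase genes were in the high class.

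Photosystem II, where water is split, had 14 of 15 genes in the high class, with a median signal of 1701. psbM, a small subunit, averaged 6080 ± 665, and psbA, which encodes the D1 reaction centre protein that is constantly replaced in the light, gave 4177, 4248 and 3557. psbN, placed in this group by its name alone, was the exception, with 325, 220 and 188. All 5 genes of photosystem I were in the high class, led by psaB, a reaction centre protein, at 4999 ± 156. psaA, the partner of psaB in the same reaction centre, averaged 734 ± 162.

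Genes that are transcribed together in the chloroplast could differ widely in signal. psaB and psaA stand next to each other in 1 operon, yet the signal of psaB was 6.81 times that of psaA, from 5.86 on array 1 to 8.73 on array 3. Within the psbE operon for cytochrome b559 and small subunits, psbF had 4.49 times the signal of psbL, 1.77 times that of psbE and 1.37 times that of psbJ. For atpB over atpE the ratio was 1.07. For psbC over psbD it was 2.98, from 2.68 on array 2 to 3.84 on array 3. These ratios join transcript level and probe behaviour, which cannot be told apart.

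The cytochrome b6f complex, which passes electrons between the photosystems, had 4 of 6 genes in the high class. petB, for cytochrome b6, averaged 5029 ± 266, whereas petD, for subunit IV, had 257, 270 and 140, again lowest on array 3. The NDH complex, which carries electrons around photosystem I, had 8 of 10 genes in the high class, with ndhD at 3007 ± 181 and ndhH at 67.7 ± 13.5. rbcL, for the large subunit of the carbon-fixing enzyme Rubisco, gave 657, 597 and 486, at rank 1087.

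Genes of the plastid's own expression machinery were nearly as prominent. Of 15 ribosomal protein genes 13 were in the high class, with rps4 at 5826 ± 249 and rps16 at 155 ± 32.9. Of 4 RNA polymerase genes 3 were high, with rpoA at 2899 ± 431 and rpoB at 67.7 ± 12.5. The other 7 genes were all high, among them clpP, a protease subunit, at 3932 ± 345, ccsA, for cytochrome c assembly, at 3783 ± 368, and matK, an intron maturase, at 3333 ± 210.

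**Figure D2:**
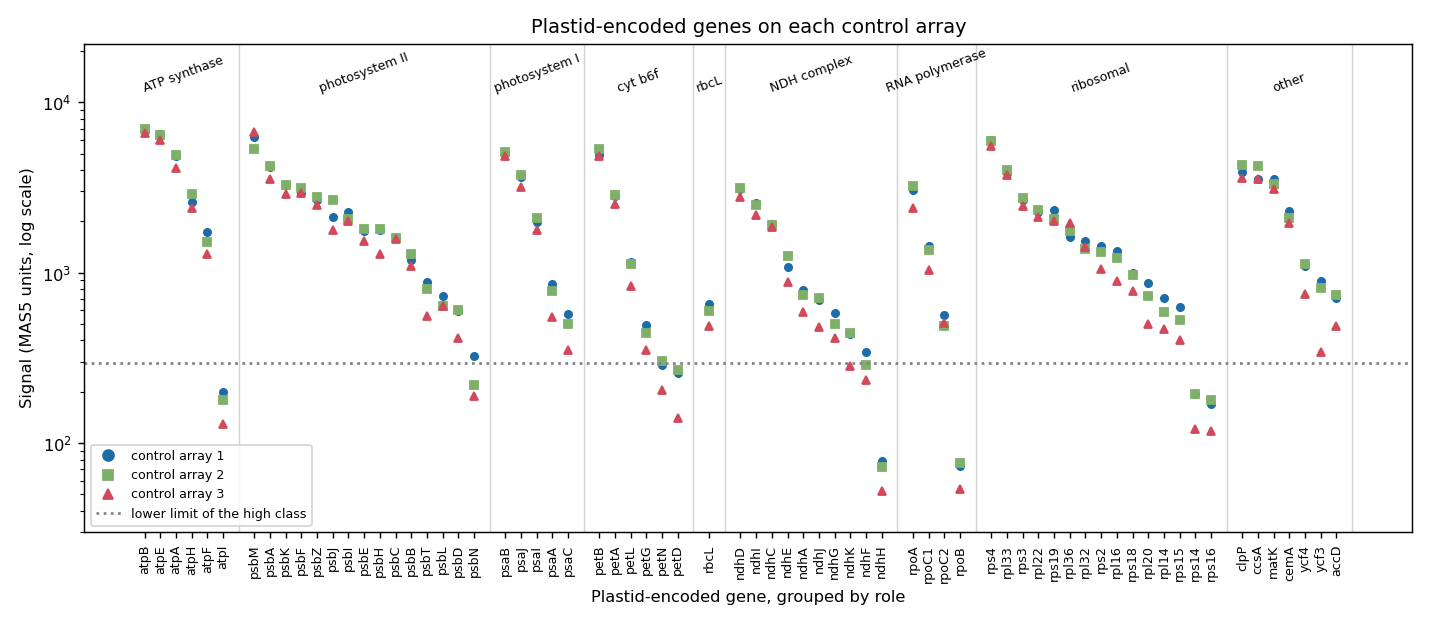
Signals (MAS5 units, log scale) of the 69 plastid-encoded genes on each of the 3 control arrays, grouped by the role of the product. Most genes lie above the dotted lower limit of the high class, and the triangles of array 3 lie lowest in 65 of 69 genes, with wider gaps among the dimmer genes.

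Plastid transcripts also moved together between the arrays. In 65 of 69 genes array 3 had the lowest signal, against 37.9% of all probe sets above the 40th percentile and 38.9% of 902 nuclear genes of the high class. Of the whole high class 42.7% were lowest and 36.8% highest on array 3. The difference of array 3 from the mean of arrays 1 and 2 had a median of -0.32 on the log2 scale, against -0.01 over all probe sets and 0.00 for the nuclear genes of the high class. Arrays 1 and 2 differed by a median of 0.01.

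The gap was wider for dimmer plastid genes. The 35 genes with means from 1445 to 6785 had a median difference of -0.13, and the 34 with means from 67.7 to 1277 had a median of -0.50. Across the 69 genes the rank correlation of mean signal with the difference was 0.71, a description over genes that share the 3 libraries. The largest single difference was that of ycf3, a factor in photosystem I assembly, with 895, 816 and 343 on arrays 1, 2 and 3, or -1.30. psbM and rpl36 went the other way, at 0.20 and 0.23. The part of RNA integrity in this was not tested. Of the 3 prime to 5 prime ratios, that of GAPDH was highest on array 3, at 1.97, while those of actin and ubiquitin were highest on array 2, at 12.0 and 1.72.

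Nuclear genes for photosynthesis stood equally high. Of 7 nuclear photosystem and antenna genes 6 were in the high class, with a list median of 2871. PSAE-1, a stromal subunit of photosystem I, averaged 4701 ± 169, and LHCB4.1, an antenna protein of photosystem II, 4683 ± 235. LHCB4.2, a close relative, had 2679, 2548 and 2341. LHCB4.3, of the same family, had 71.6, 58.1 and 97.5 and lay far under both on every array.

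All 4 genes of the Calvin cycle and photorespiration list were in the high class. RCA, Rubisco activase, gave 5382, 5523 and 5061, the highest mean of any nuclear probe set with 1 gene, 5322 ± 237. HPR, the peroxisomal hydroxypyruvate reductase of photorespiration, gave 3090, 2849 and 2144, and PRK, phosphoribulokinase, 2662, 2355 and 2047. SBPASE, sedoheptulose-bisphosphatase, varied least of the 4, at 1734 ± 54.3. All 4 were lowest on array 3, as were 5 of the 7 photosystem and antenna genes.

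Chlorophyll and haem synthesis had 7 of 13 genes in the high class and none in the low class, with a median of 409. The share in the high class was 53.8%, against 15.2% of probe sets with a gene symbol. CHLM, the magnesium-protoporphyrin methyltransferase, averaged 1482, and PORB, the light-dependent protochlorophyllide reductase, 1243. HEMA2 and HEMA3, for the enzyme at the entry of the pathway, had 47.6 and 6.92. HEMA3 gave 16.5 on array 1 but 2.28 and 1.95 on arrays 2 and 3.

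Outside the chloroplast, the high class held some genes of central metabolism and protection. GAPC2, cytosolic glyceraldehyde-3-phosphate dehydrogenase, gave 3744, 3673 and 4187, and TPI, triose-phosphate isomerase, 1960, 2015 and 2276. GAPC2 and TPI were the only members of the sucrose, starch and glycolysis list in the high class, 2 of 7. That was 28.6%, against 15.2% of probe sets with a gene symbol, and the list median was 165. SAMDC, for a step of polyamine synthesis, averaged 3569 ± 217. MT1C, a metallothionein that binds metals, gave 2279, 2358 and 2877. MT1C, GAPC2 and TPI were all highest on array 3, by less than 1.5-fold.

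The aldehyde dehydrogenases, which oxidise reactive aldehydes, had 5 of 8 members in the high class, led by ALDH11A3, a glyceraldehyde-3-phosphate dehydrogenase that needs no phosphate, at 1476. Of 14 glutathione S-transferases, which join toxins to glutathione, 2 were high, GSTU20 at 1011 and GSTL3 at 418. The shares in the high class were 62.5% for the aldehyde dehydrogenases and 14.3% for the transferases, against 15.2% of probe sets with a gene symbol. LCR69 and LCR68, small secreted peptides of the defensin type, averaged 1399 and 865. The jasmonate-responsive defensins PDF1.2 and PDF1.2b had 17.3 and 19.5, and PDF1.2b ranged from 1.59 on array 1 to 40.1 on array 3.

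The glucosinolate and myrosinase list, a defence system of the cabbage family, had 3 of 7 members in the high class. That was 42.9%, against 15.2% of probe sets with a gene symbol. PYK10, the beta-glucosidase of endoplasmic reticulum bodies that is abundant in roots, gave 3004, 3163 and 3470. BCAT4, an aminotransferase that starts methionine chain elongation, averaged 1648. NAI2, needed to form the same bodies, averaged 550. The related jacalin lectins JAL34, JAL22 and JAL33 were also high, at 722, 503 and 450, whereas JAL23 was not.

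Cytoskeleton genes had 4 of 9 members in the high class, led by the alpha-tubulin TUA6 at 1357, and ACT12, an actin of pollen, was low at 1.71. Of 10 ATG3 and ATG8 genes of autophagy, by which cells digest their own contents, 3 were high, led by ATG8F at 793, and none was low. Ubiquitin-conjugating enzymes had 2 of 12 members in the high class, with UBC28 at 634. The 1 named proteasome gene, RPN12a, had 380, and EIF4A-2, an RNA helicase of translation initiation, 587.

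**Figure D3:**
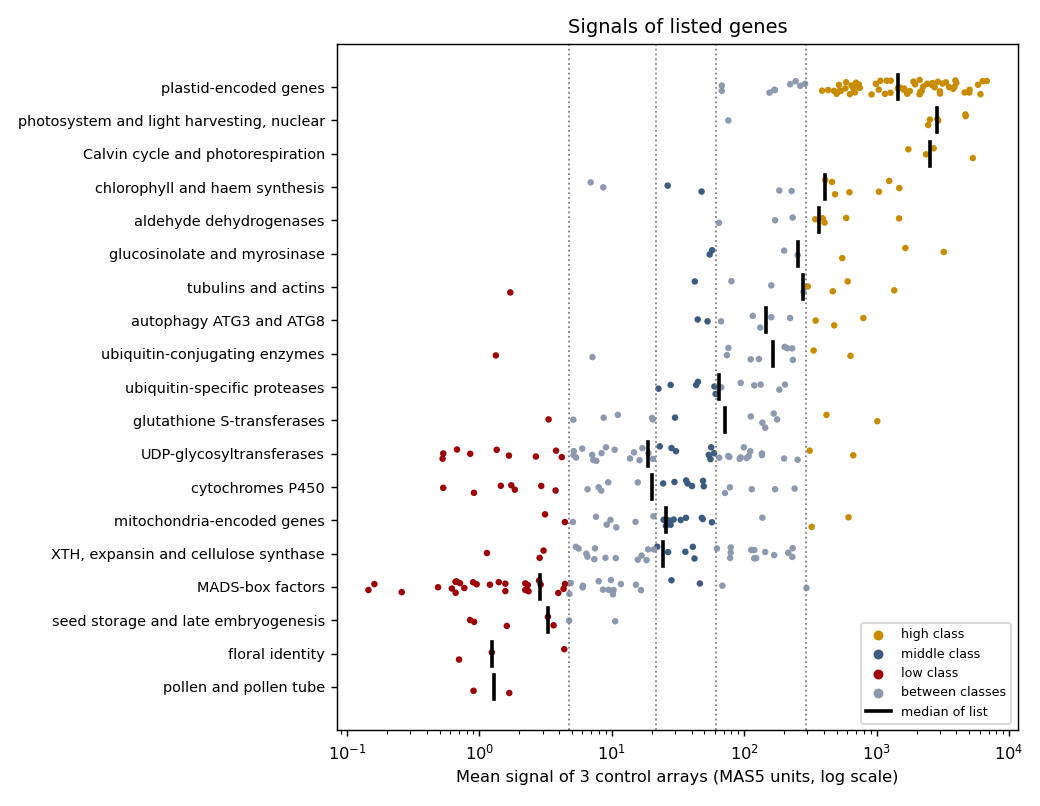
Mean signal of the 3 control arrays (MAS5 units, log scale) for the members of 19 gene lists, 1 point per probe set coloured by class, with the list median as a black bar and the class limits dotted. Photosynthesis lists lie at the right with medians of 409 to 2871, and floral, pollen and seed lists at the left with medians of 1.24 to 3.29.

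Gene lists of ubiquitin-dependent protein turnover differed in where their members lay. Of 12 ubiquitin-conjugating enzymes, described above, none was in the middle class and the list median was 166. Of 12 ubiquitin-specific proteases 6 fell in the middle class and none in the low class, and the list median was 64.0. Among all probe sets with a gene symbol 18.4% were middle and 13.4% low, with a median of 60.6. Of 9 U-box ubiquitin ligases 6 were in the middle class, including PUB22 at 35.1 and PUB23 at 40.8, which act in responses to drought and immune signals. Of the 10 probe sets with 1 gene nearest to the overall median, those with a symbol were CLE44, a peptide that maintains vascular stem cells, at 38.1 ± 2.18, and TON1B, which positions the plane of cell division, at 38.3 ± 5.63.

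Mitochondria-encoded genes lay far lower than plastid-encoded ones. Of 23 probe sets for 16 genes, 11 were in the middle class, 2 in the high and 2 in the low, and the median was 25.6, against 1445 for the plastid-encoded genes. The high ones were ccb382, for cytochrome c assembly, at 613 and nad4, a subunit of complex I, at 323. The gene nad1 had 7 probe sets with means from 3.13 to 48.6. Of the 14 probe sets above the 40th percentile, 10 were lowest on array 3, with a median difference of -0.11 on the log2 scale.

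Several large families had few or no members in the high class, which held 15.2% of probe sets with a gene symbol. Cytochromes P450 are oxidases of hormones and defence compounds, and most of the 24 listed here belong to the CYP71B subfamily. Of these 24 none was high, 7 were in the middle class and 7 in the low, and CYP71B6 was highest at 240. Other subfamilies were hardly covered. Of 47 UDP-glycosyltransferases, which attach sugars to small molecules, 2 were high, 7 middle and 9 low, from UGT88A1 at 666 to UGT73C1 at 0.527. Of 34 genes for xyloglucan endotransglucosylases, expansins and cellulose synthase-like proteins, which remodel the cell wall, none was high and 3 were low, and CSLC04 and XTH32 were highest at 232 and 231. SWEET11, an exporter that loads sucrose into the phloem, had 483, while the median of 14 SWEET sugar transporters was 10.6.

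Pseudogenes and genes of other stages lay at the low end. Of 923 annotated pseudogenes 738 were in the low class and none in the high, against 24.5% and 7.13% of all probe sets with 1 gene, and their median was 2.12. At or under the highest Bacillus mean lay 729 of them. The highest was AT4G05510, with 88.0, 113 and 113. Of the 10 lowest probe sets with 1 gene, 9 were annotated pseudogenes.

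Of 42 probe sets for MADS-box factors, a family known for flower and seed development, 25 were in the low class and none in the high, with a median of 2.86. The highest, 1 of 2 probe sets for AGL26, had a mean of 295, just outside the high class. The other AGL26 probe set, at 0.145, was the lowest of the 42. The count in the high class became 1 without replicate 1, without replicate 2 or when only probe sets with 1 gene were ranked. AGL16, AGL18 and AGL24 followed at 68.3, 46.2 and 28.2, of which AGL24 promotes flowering. Protein-coding probe sets as a whole had 20.1% in the low class. By chromosome the share in the high class ran from 6.14% on chromosome 2 to 7.35% on chromosome 5.

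Markers of organs followed the whole-plant label only as far as the table names them. Leaf genes were high, as given above for photosynthesis. Of 4 root genes, PYK10 alone was in the high class. The locus AT5G66390 had 32.0, and EXPA18 and EXPA7, expansins of root hairs, had 18.8 and 7.46. Genes of stomatal development differed in level. STOMAGEN, a peptide from the leaf mesophyll that promotes stomata, was in the high class and gave 378, 392 and 294, SPCH, which starts the lineage, 55.6, 43.0 and 31.0, and FMA, which completes it, 64.9, 39.3 and 30.5. STOMAGEN, SPCH and FMA were lowest on array 3. MUTE, which acts between SPCH and FMA, had 12.4, 2.33 and 3.61.

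Of 4 vascular genes, CLE41, a phloem peptide, averaged 156, and PHV, a factor of vascular and leaf patterning, 75.0. GUT2 and IRX15, both for xylan of secondary walls, lay apart, at 42.6 in the middle class and 0.977 in the low class. The mitotic kinase AUR1 averaged 86.3, whereas CLV3, expressed in a few cells of the shoot tip, was low at 1.68. All 3 floral genes were low, with UFO at 1.24 and SPL at 0.701. So were both pollen tube receptors, ANX1 at 0.903 and ANX2 at 1.68, and 5 of 7 seed genes. OLEO3, an oil body protein of seeds, had the highest of these at 10.6.

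The spread between the 3 arrays was small for bright probe sets. Over the 13647 probe sets with means above the 40th percentile, 21.4, the median SD of log2(signal + 4.62) was 0.143. It was 0.213 in the 10% of probe sets just above that limit and 0.107 in the highest 10%, where the coefficient of variation was 7.40%. Arrays 1 and 2 correlated at r = 0.985, arrays 2 and 3 at 0.979 and arrays 1 and 3 at 0.976 on the log2 scale, across probe sets that are not independent replicates.

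**Figure D4:**
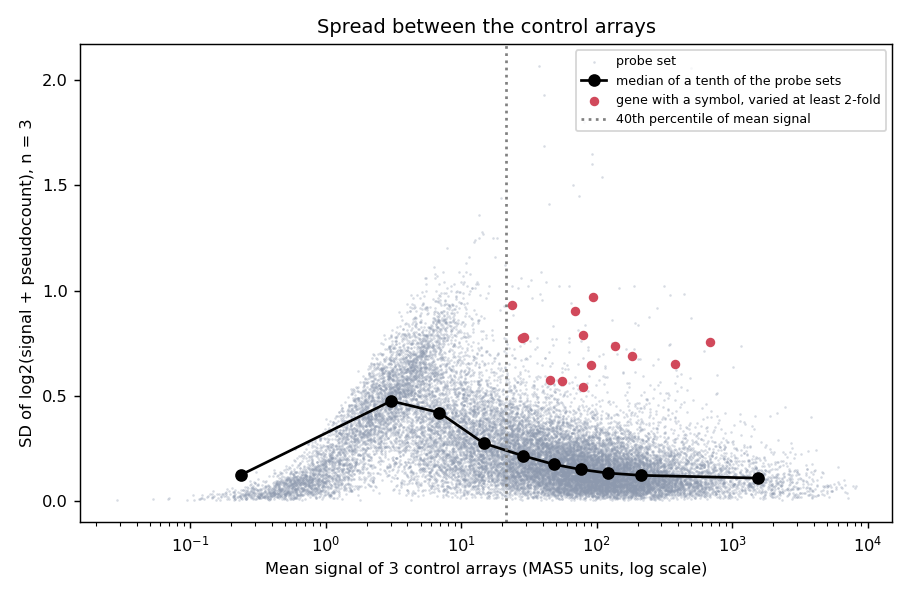
SD of log2(signal + 4.62) over the 3 control arrays against mean signal (MAS5 units, log scale), 1 point per probe set, with the median of each successive 10% of probe sets as a black circle and the 14 genes with a symbol that varied at least 2-fold in red. Above the dotted 40th percentile the median falls to 0.107 in the highest 10%, and the red points lie between 0.543 and 0.968.

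The steadiest genes of the high class were chosen by their small SD. RAP, which acts in the maturation of chloroplast ribosomal RNA, gave 305, 306 and 304. BZIP53, a transcription factor of amino acid metabolism and seed maturation, gave 576, 573 and 582, and CUL4, the scaffold of a ubiquitin ligase, 523, 533 and 529. The locus AT3G16080 was steadiest of all, with 2317, 2326 and 2312.

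A difference of at least 2-fold between the highest and lowest array, after adding 4.62, was found in 221 of 13647 probe sets, or 1.62%. Of these 221, 117 were assigned to 1 gene, 1.60% of such probe sets, and 14 of the 117 had a gene symbol. Only 23 of the 221 were in the high class and 125 were in the middle class. Array 3 was the one farthest from the other arrays in 136 of them, or 61.5%, against 41.2% over all probe sets tested, and in 97 of the 136 it was the highest. Between arrays 1 and 2 alone, 53 probe sets differed 2-fold, against 150 between arrays 1 and 3 and 101 between arrays 2 and 3.

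Of the 221 varying probe sets 132 were highest on array 3, against 35.2% of all probe sets tested. The 14 varying genes with a symbol had a similar share, 9 of 14. Prx37, a peroxidase of the cell wall, had 59.9, 46.9 and 177, a difference of 3.52-fold. CML38, a calmodulin-like calcium sensor, had 46.4, 35.2 and 126. In both genes arrays 1 and 2 were close and array 3 was apart.

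Cell wall genes were among them. XTH19, a xyloglucan endotransglucosylase, had 46.4, 54.6 and 136. ATPMEPCRB, a pectin methylesterase, had 75.0, 118 and 216, and EXLA1, an expansin-like protein, 52.4, 69.5 and 115. XTH18, related to XTH19, moved the same way without reaching 2-fold, with 31.7, 32.8 and 61.9. Of the 18 members of the cell wall list above the 40th percentile, 11 were highest on array 3, and their median difference from arrays 1 and 2 was 0.30 on the log2 scale, against -0.01 over all probe sets.

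The rest of the genes highest on array 3 had varied roles. OSM34, an osmotin-like protein, had 254, 292 and 592. ICL, isocitrate lyase of the glyoxylate cycle that turns stored fat into sugar, had 16.3, 17.7 and 49.9. BETA-VPE, a vacuolar protease, had 35.4, 47.1 and 82.3, and RHF1A, a RING-type ubiquitin ligase, 27.9, 12.9 and 46.6. In RHF1A all 3 arrays were apart.

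A few genes were lowest on array 3. LSM6B, a subunit of RNA decay and splicing complexes, had 246, 206 and 97.3, and IAA18, a repressor of auxin response, 123, 101 and 49.6. HIS1-3, a linker histone induced by drought, had 55.1, 55.8 and 25.5, and ycf3 has been given above. JAL23, the jacalin lectin, was alone in standing high on array 2, with 11.9, 46.4 and 12.3.

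**Figure D5:**
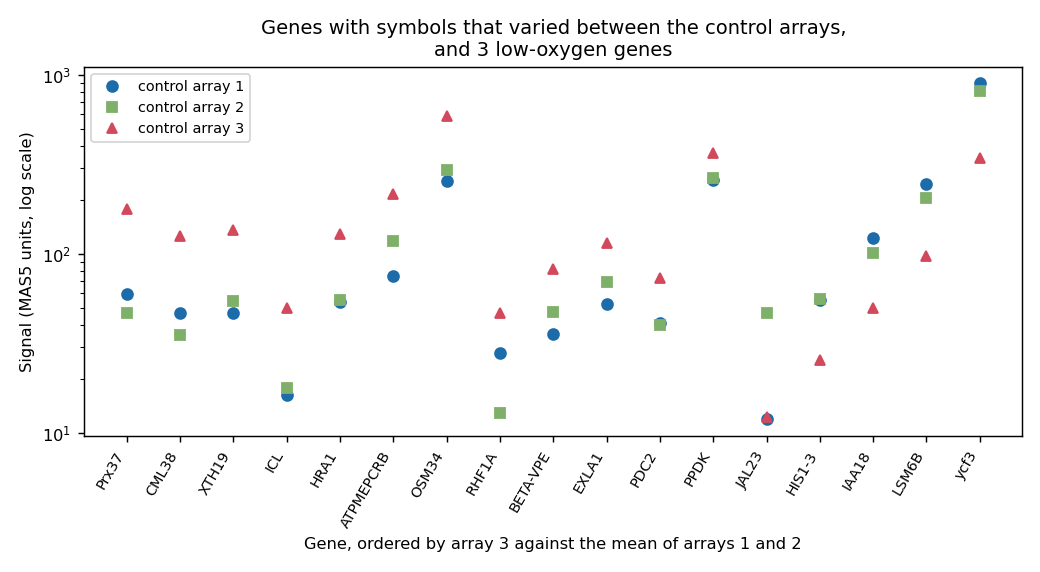
Signals (MAS5 units, log scale) on each control array for the 14 genes with a symbol that varied at least 2-fold and for HRA1, PDC2 and PPDK, ordered by array 3 against the mean of arrays 1 and 2. Array 3 lies above arrays 1 and 2 in the genes on the left and under them in the genes at the right end, and arrays 1 and 2 lie close together in most.

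All 3 named members of the low-oxygen list, genes that rise when plants lack oxygen, were highest on array 3. The share highest on array 3 was 35.2% over all probe sets tested, so a count of 3 is a small basis. HRA1, a factor that dampens the response, had 53.7, 55.2 and 129, a difference of 2.28-fold. PDC2, pyruvate decarboxylase of fermentation, had 40.8, 39.9 and 73.5, and PPDK, pyruvate phosphate dikinase, 259, 265 and 364. PDC2 and PPDK differed by less than 2-fold. The list's other entries were not analysed here, and CML38, which is also known to be induced by low oxygen, was not on the list.

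The widest differences of all were at probe sets without a symbol, for which values alone are given. AT4G33720 had 14.9, 25.1 and 199, AT5G10040 had 6.96, 13.8 and 102, and AT3G29970 had 16.3, 32.0 and 151 on arrays 1, 2 and 3. Probe set 264953_at, with no gene named, had 75.6, 155 and 1248, a mean of 493. Among the 25 most variable probe sets with 1 gene, 19 were highest on array 3 and 4 were lowest there. A different order was seen at 247718_at, with 0.685, 87.4 and 23.9, and at 266142_at, with 2.00, 85.4 and 34.9, both lowest on array 1 and with no gene named.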

How the data were processed

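Per the submitters' processing notes, the authors used GCOS and MAS5 to make the deposited signal intensities, which are linear. Software versions: not given in the sources used here. Their scaling was kept. Detection calls were not used here. The members and gene lists were chosen with earlier results of these data known, and 25 lists and the 9 plastid groups by role were written only once the gene tables had been seen. Genes came from a table of probe genes joined to RefSeq gene symbols and synonyms, with symbols of unrelated genes removed from the lists, and 77 of the 13513 probe sets with 1 gene had no RefSeq match. Probe sets were ranked by the mean of the 3 arrays with Python 3.11.15, numpy 2.4.6 and pandas 2.3.3. Classes were the top 10%, the 40th to 60th percentile and the bottom 20%. Spread was the SD of log2(signal + 4.62), where 4.62 is the middle value of the 20th percentiles of the 3 arrays, taken above the 40th percentile of mean signal.

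Genes were named, among probe sets with 1 gene, as the 25 highest, the 25 most variable, the 10 steadiest of the high class, the 10 nearest the median, the 10 lowest, the markers, and for each list up to 5 of the highest and 3 of the lowest members. Unnamed probe sets were given only from the 5 highest or most variable. Genes outside this rule were singled out after their values were seen: SDH2-1, HEMA2, PDF1.2, PDF1.2b, XTH18, the varying genes with a symbol beyond the 25, and some members of the plastid groups. With 1 group no test was made, and precision is limited by there being 3 arrays. The spread calculation was tested on simulated data. Alternatives changed the ranking measure, class limits, pseudocount, filter, fold limit, normalization and arrays used.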

Additional observations from a re-analysis of the deposited data

How the results depend on the processing

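The number of probe sets differing at least 2-fold between the control arrays, 221, depended most on the settings. It was 335 with no pseudocount, 89 with a pseudocount of 21.0, 2181 with no filter on dim probe sets, 96 with a filter at the 60th percentile, 1525 for 1.5-fold and 39 for 3-fold. With 1 array left out it ranged from 53 without replicate 3 to 150 without replicate 2, with 101 without replicate 1; fewer arrays give fewer chances to differ. Quantile normalization gave 223 and median centring 222. The plastid-encoded genes in the high class numbered 60, with 53 for the top 5%, 67 for the top 20%, 63 when only probe sets with 1 gene were ranked, and 60 to 62 with 1 array left out. Over 57 gene lists, 274 of 342 recomputed counts in the high class were within 1.5 times the reported count and 68 were not, of which 49 were for the top 5% or top 20%. PPDK left the high class without replicate 3. Of the 25 genes named as most variable, 17 to 24 were named again under other settings, of which a ranking without a pseudocount, with the larger pseudocount and after quantile normalization were chosen after seeing the data. No paired analysis was possible because there is 1 group of 3 arrays and no comparison between groups. Signals in the low class are limited by the background that the Bacillus probe sets show.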
